A study of Caenorhabditis elegans with 6 samples.

Results

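The nuclear hormone receptor genes named nhr were followed in whole-body RNA of L4 larvae of the nematode Caenorhabditis elegans, in 3 libraries of a glna knockout and 3 libraries of the wild type, strain N2. L4 is the last larval stage, and both genotypes were untreated. The glna genes encode glutaminases, enzymes that turn glutamine into glutamate. Neither the disrupted glna genes nor their alleles are named in the labels. The labels also do not call the replicates separate cultures, so a p-value here reflects the spread among libraries, which may be technical. The genes were chosen by name: every listed gene with a symbol of the form nhr and a number, leaving out nhr-23, nhr-25 and nhr-41. Of the 21507 genes listed, 251 met that rule, and 181 of these had a mean of at least 10 normalized counts over the 6 libraries, the filter that left 15169 genes of all kinds for testing. The other 70 stayed below the filter, though none of them was at 0 in all libraries. Just inside it were nhr-237, nhr-158 and nhr-172, with means of 12, 12.5 and 12.9 normalized counts, and just outside it were nhr-147, nhr-207 and nhr-167, with 9.14, 8.59 and 8.34.

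Nuclear hormone receptors are transcription factors that bind DNA through a zinc-finger domain and carry a second domain that can hold a small fat-soluble ligand such as a steroid, a bile acid or a fatty acid. C. elegans has far more of them than insects or mammals, mostly through the expansion of a branch related to HNF4, a liver and gut receptor of mammals. In the worm, some well-studied receptors of this branch act in the intestine. There NHR-49 and its partners control fat metabolism, and NHR-10, NHR-68 and NHR-114 respond to the supply of vitamin B12 and its products. For most family members no ligand or target is known.

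The libraries held between 18443661 and 19861540 reads assigned to genes. Ribosomal RNA genes took 3.58% of the reads of knockout replicate 1, against 0.331% to 0.763% in the other libraries. As a check of the labels, glna-2 averaged 57.6 ± 17.6 normalized counts in the knockout and 458 ± 56.3 in wild type (SD, n = 3 each), with a log2 fold change of -3.01 (SE 0.25, limma adjusted p = 0.0222). glna-3 averaged 125 ± 46.6 in the knockout and 689 ± 64.8 in wild type, with a log2 fold change of -2.52 (SE 0.25, limma adjusted p = 0.0291). glna-1 averaged 156 ± 29.7 in the knockout and 264 ± 7.88 in wild type and missed the threshold, with a limma adjusted p of 0.0762 (log2 fold change -0.78, SE 0.17). The limma calls of glna-2 and glna-3 were lost without wild type replicate 1, 2 or 3 or without knockout replicate 3, with adjusted p up to 0.115, while the log2 fold changes in those fits stayed between -3.17 and -2.92 for glna-2 and between -2.58 and -2.45 for glna-3. Whole bodies mix all tissues, and markers of neurons, body wall muscle, pharynx, hypodermis, oocytes and sperm all passed the filter, as did 7 of 8 intestine markers.

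As a group, the receptor genes lay slightly above the wild type level in the knockout, and no single receptor passed the main test. In limma fitted to log2(normalized count + 1) over all tested genes, with a Benjamini-Hochberg adjusted p of 0.05 as the threshold, 0 of the 181 receptors were called, beside a background of 0.356% of all tested genes (54 genes). At an unadjusted p under 0.05, 19 receptors were higher in the knockout (10.5%, against 10.9% of all tested genes) and 1 was lower (0.552%, against 11.8%). edgeR on the recovered reads likewise called 0 receptors. The authors' deposited table gives an adjusted p under 0.05 to 5 receptors that were higher (2.76%, against 4.01% of all tested genes) and to 1 that was lower (0.552%, against 4.13%), in all 3.31% of the receptors, against 8.14% of all tested genes. The share of receptors that were higher was thus no larger than the background by any of these rules. The share that was lower was below it.

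The direction of the receptors was more one-sided than their individual tests. The log2 fold change was positive for 123 of the 181 receptors (68%, against 51.2% of all tested genes), and its median was 0.13, against 0.01 for all tested genes. The interquartile range of the receptors was -0.03 to 0.33, while that of all tested genes was -0.26 to 0.25. In 26 receptors all 3 knockout libraries lay above all 3 wild type libraries (14.4%, against 15.3% of all tested genes). In 4 receptors, nhr-112, nhr-275, nhr-146 and nhr-3, all knockout libraries lay below all wild type libraries (2.21%, against 15.2%). These 4 were named after their values were seen.

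**Figure D1:**
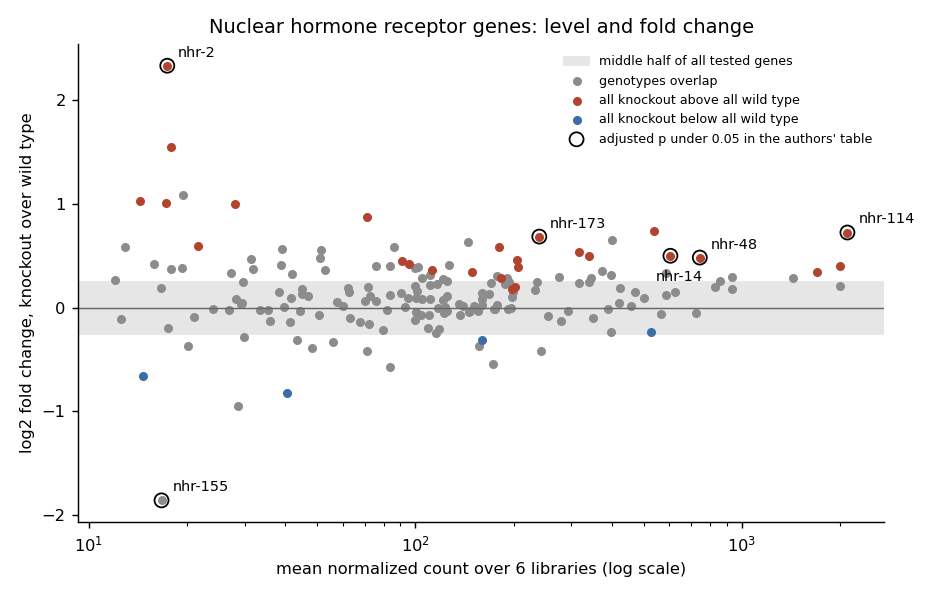
Mean normalized count over the 6 libraries (log axis) against the limma log2 fold change of glna knockout over wild type for the 181 receptor genes, with the genotypes' overlap in colour and circles for an adjusted p under 0.05 in the authors' deposited table. Most points lie within or just above the grey band, the interquartile range of all tested genes, -0.26 to 0.25, and few lie below it.

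Relative to each gene's wild type mean on the log2 scale, the median receptor stood at 0.03, 0.11 and 0.26 in knockout replicates 1, 2 and 3, and at -0.04, -0.01 and 0.06 in wild type replicates 1, 2 and 3. Knockout replicate 1 thus lay within the wild type range, and knockout replicate 3 was the highest. Without knockout replicate 3 the median fold change of the receptors was 0.06, and without knockout replicate 1 it was 0.16. Leaving out a library also moved the count of receptors whose groups did not overlap. Without knockout replicate 2 or 1, 49 or 43 receptors were higher, which is 27.1% or 23.8% of the receptors against 22.7% or 18.5% of all tested genes. Without wild type replicate 1, 32 were higher (17.7%, against 22.9%), and without each of the other libraries 36 to 39 were (19.9% to 21.5%, against 18.0% to 21.3%). The higher share thus lay above the background in some of these settings and below it in others. The lower share stayed below the background in all of them. It was highest without wild type replicate 1, at 13 receptors (7.18%, against 21.1%), and reached 7 to 12 receptors without wild type replicate 2 or 3 or knockout replicate 2 or 3 (3.87% to 6.63%, against 17.9% to 23.3%).

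The summed normalized counts of the 181 receptors were 42573, 40442 and 43499 in the knockout libraries, against 35366, 34708 and 37933 in the wild type libraries. All knockout sums lay above all wild type sums. The sums depend on the authors' normalization, which multiplied the reads of knockout replicate 1 by 1.17 and those of the other libraries by 0.937 to 0.997. A share of the reads leaves out this scaling, though it counts ribosomal RNA among the reads. By that share the receptors held 0.193%, 0.213% and 0.244% in the knockout. In wild type they held 0.189%, 0.184% and 0.205%, and here the groups overlapped. The median of the receptors was positive at all levels. Among the receptors above the upper quartile of the mean, 199 normalized counts, 35 of 45 had a positive fold change and the median was 0.23, while all tested genes in the same range of levels had a median of 0.04. Below the lower quartile, between it and the median, and between the median and the upper quartile, the receptors had medians of 0.12, 0.09 and 0.07, beside -0.03, -0.04 and -0.06 for all tested genes in those ranges.

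Most receptors were weakly represented. The wild type mean was at least 500 normalized counts in 17 receptors and under 100 in 84. Per kilobase of gene length, the 6 most abundant receptors held 22.9% of the summed level of all 181. In order over all libraries these were nhr-114, nhr-68, nhr-31, nhr-97, nhr-49 and nhr-101. nhr-114 held 1779 ± 417 normalized counts per kilobase in the knockout and 1075 ± 235.5 in wild type (SD, n = 3 each). nhr-68 held 1140 ± 53.3 per kilobase in the knockout and 949 ± 188 in wild type, and nhr-101 held 543 ± 91 in the knockout and 336 ± 108 in wild type. The SDs of nhr-114 and nhr-68 overlapped in wild type, and the SDs of nhr-68 and nhr-31 and of nhr-97 and nhr-49 overlapped in both genotypes, so the order of these neighbours was not separated by the spread. The place of nhr-101 rests on the knockout, since in wild type nhr-86 (413 ± 47.6 per kilobase), nhr-45, nhr-88, nhr-1 and nhr-69 all had higher means. With exon lengths of the Ensembl annotation in place of the deposited lengths, nhr-86 took the place of nhr-101.

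**Figure D2:**
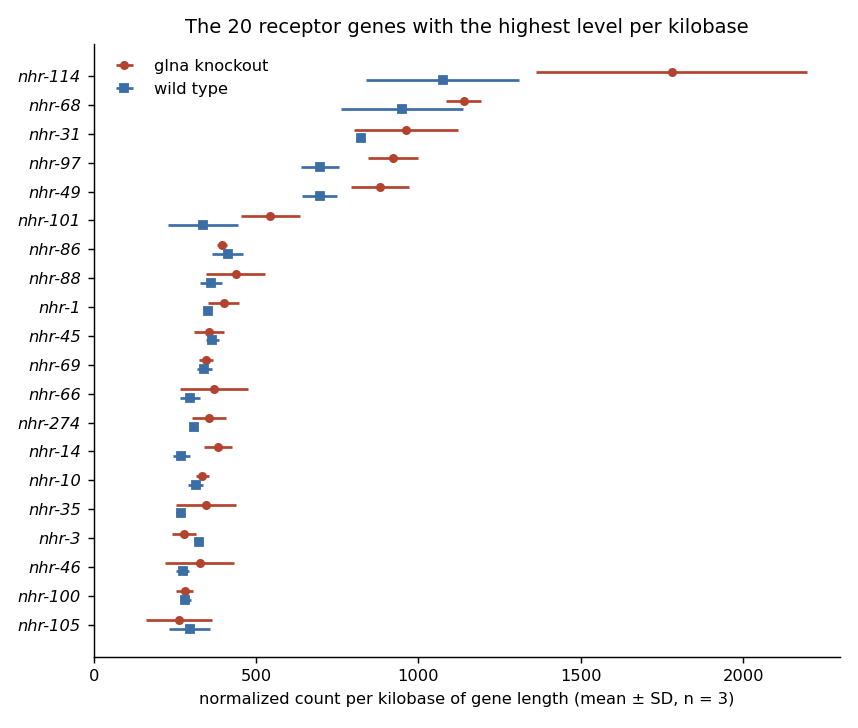
Normalized counts per kilobase of deposited gene length for the most abundant receptor genes, as mean ± SD of 3 libraries, in glna knockout (circles) and wild type (squares). nhr-114 is the most abundant in both genotypes, at 1779 in the knockout and 1075 in wild type, and most genes after the 5 most abundant lie below 500.

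Among the receptors that respond to nutrients, nhr-114 (Y45G5AM.1, chromosome V, 4187202 to 4190008, plus strand, WBcel235) was the one with the clearest difference. NHR-114 switches on genes of the methionine cycle when its products run short and protects the germline on diets poor in vitamin B12. Its normalized counts were 3156, 2769 and 1950 in the knockout libraries, against 1711, 1193 and 1853 in the wild type libraries. All knockout values lay above all wild type values, though knockout replicate 3 and wild type replicate 3 were close. The log2 fold change was 0.72 (SE 0.22, limma adjusted p = 0.125), while the authors' deposited table gives an adjusted p of 0.0329. Without any 1 of the libraries its limma log2 fold change lay between 0.53 and 0.92.

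NHR-10 and NHR-68 act together on the propionate shunt, the route that breaks down propionate when vitamin B12 is scarce. nhr-68 had 1486, 1625 and 1597 normalized counts in the knockout libraries and 1238, 1088 and 1593 in the wild type libraries, with a log2 fold change of 0.28 (SE 0.15, limma adjusted p = 0.300). Wild type replicate 3 lay inside the knockout range. nhr-10 averaged 516 ± 29.9 in the knockout and 485 ± 36 in wild type, with a 95% interval of the log2 fold change from -0.19 to 0.37. For NHR-31, which is needed for the growth of the excretory cell, the knockout libraries held 2504, 2157 and 1790 normalized counts and the wild type libraries 1837, 1825 and 1853. Here the wild type was tight and the knockout wide, the groups overlapped, and the log2 fold change was 0.21 (SE 0.14, limma adjusted p = 0.380).

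NHR-49 controls fatty acid desaturation and breakdown and is often compared with PPAR-alpha of mammals, and NHR-13, NHR-66 and NHR-80 are its partners. nhr-49 (K10C3.6, chromosome I, 9869651 to 9874680, plus strand) had 2036, 1675 and 1972 normalized counts in the knockout libraries, against 1411, 1446 and 1625 in the wild type libraries. The genotypes did not overlap, and the log2 fold change was 0.34 (SE 0.12, limma adjusted p = 0.163). The authors' deposited table gives it an adjusted p of 0.147. None of the 3 partners separated the genotypes. The log2 fold changes were 0.23 for nhr-13, 0.29 for nhr-66 and -0.13 for nhr-80, with 95% intervals of -0.18 to 0.65, -0.15 to 0.74 and -0.51 to 0.25. nhr-80 averaged 265 ± 26.7 normalized counts in the knockout and 292 ± 48.6 in wild type, and without wild type replicate 3 its difference was 0.0007 on the log2 scale.

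Of the receptors tied to metals, foreign compounds and microbes, nhr-14 was one of those called in the authors' deposited table. NHR-14 takes part in the worm's response to iron and in its defence against bacteria. nhr-14 (T01B10.4, chromosome X, 8473722 to 8476178, minus strand) had 782, 621 and 723 normalized counts in the knockout libraries, against 486, 553 and 461 in the wild type libraries. The lowest knockout value lay above the highest wild type value, and the log2 fold change was 0.50 (SE 0.14, limma adjusted p = 0.105). The authors' deposited table gives it an adjusted p of 0.0422. NHR-8 acts in resistance to foreign compounds and in cholesterol balance, and NHR-86 senses a bacterial metabolite and switches on defence genes. nhr-8 averaged 609 ± 90.5 in the knockout and 560 ± 79.0 in wild type, and nhr-86 averaged 554 ± 22 in the knockout and 580 ± 66.7 in wild type. Their log2 fold changes were 0.12 (95% interval -0.25 to 0.49) for nhr-8 and -0.06 (95% interval -0.35 to 0.23) for nhr-86. In limma without wild type replicate 1, nhr-86 changed sign, to 0.03. With 1 library left out, nhr-8 stayed positive in limma, and it was -0.000371 in DESeq2 without knockout replicate 1.

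Of 8 receptors with clear counterparts in insects or vertebrates, 6 were among the tested genes. One of them, nhr-48 (ZK662.3, chromosome X, 15708213 to 15716875, plus strand), belongs to the branch that also holds NHR-8 and the steroid receptor DAF-12. Its normalized counts were 988, 729 and 891 in the knockout libraries, against 634, 613 and 605 in the wild type libraries. The wild type libraries lay within a narrow range below all knockout libraries, and the log2 fold change was 0.48 (SE 0.14, limma adjusted p = 0.111). The authors' deposited table gives it an adjusted p of 0.0456. The developmental receptors of this list lay close to the wild type level. NHR-6, the counterpart of NR4A, shapes the spermatheca, NHR-67, the counterpart of tailless, specifies the anchor cell of the gonad, and NHR-85 is related to E75 and Rev-erb. The log2 fold changes were -0.07 for nhr-6, -0.09 for nhr-67, -0.08 for nhr-85 and -0.04 for nhr-91, a gene related to the germ cell nuclear factor. Their 95% intervals were -0.84 to 0.70, -0.90 to 0.71, -0.46 to 0.30 and -0.52 to 0.45, so sizeable changes in either direction remained possible, and each value changed sign in at least 1 other setting. nhr-67 was low, at 20.3 ± 5.87 normalized counts in the knockout and 21.8 ± 6.76 in wild type.

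A longer list of 36 receptors with a described function had 34 tested members. Of these, 23 had a positive log2 fold change, 6 lay above wild type in every library (17.6%, against 15.3% of all tested genes) and 0 lay below it in every library (against 15.2%). limma called 0 of them and the authors' deposited table lists 4 as higher (11.8%, against 4.01% of all tested genes), namely nhr-2, nhr-14, nhr-48 and nhr-114. The median was 0.15 for these 34 receptors and 0.13 for the other 147. The list was chosen with earlier results of these data known, so its shares do not test for an excess.

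Other abundant or separated receptors were nhr-97 and nhr-173, which are not on the longer list of described receptors, and nhr-101, which is. nhr-97 (H27C11.1, chromosome IV, 9757641 to 9764499, plus strand) had 2492, 2180 and 2145 normalized counts in the knockout libraries, against 1555, 1801 and 1809 in the wild type libraries. The genotypes did not overlap, with a log2 fold change of 0.40 (SE 0.12, limma adjusted p = 0.121). nhr-101 (H12C20.6, chromosome V, 11570476 to 11572549, plus strand), which lies next to nhr-68, had 564, 649 and 785 normalized counts in the knockout libraries, against 458, 262 and 514 in the wild type libraries. Its log2 fold change was 0.74 (SE 0.25, limma adjusted p = 0.150). Exons of nhr-101 overlap those of pms-2 on the opposite strand. The labels do not state that strand was kept, so reads in the overlapping stretch cannot be told apart. Exons of nhr-97, and among others those of nhr-66, nhr-69 and nhr-86, also overlap other listed genes on the opposite strand. nhr-173 (C56E10.1, chromosome X, 6655528 to 6660376, plus strand) had 276, 233 and 385 normalized counts in the knockout libraries, against 184, 178 and 181 in the wild type libraries. The wild type libraries were nearly equal and all knockout libraries lay above them, with a log2 fold change of 0.68 (SE 0.19, limma adjusted p = 0.109). The authors' deposited table gives it an adjusted p of 0.0329.

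**Figure D3:**
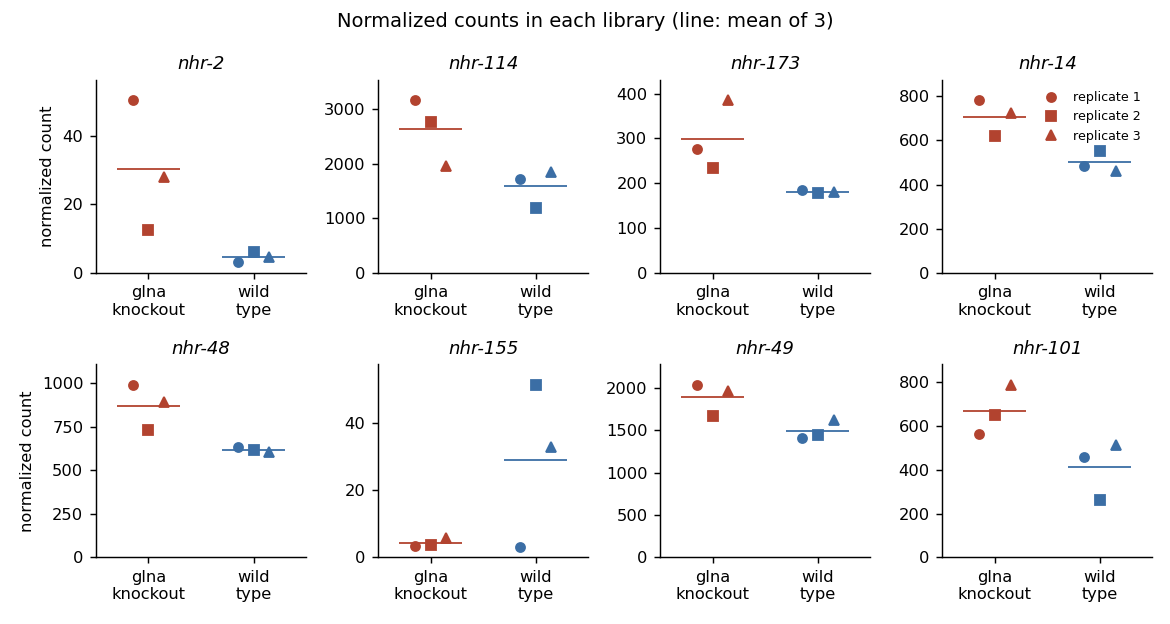
Normalized counts of 8 receptor genes in each library, with replicates as symbols and a line at the mean of 3 libraries, glna knockout on the left and wild type on the right of each panel, each panel with its own axis from 0. The genotypes are separated in every panel except that of nhr-155, where wild type replicate 1, at 2.99, is as low as the knockout libraries.

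The largest fold change among the 181 receptors was that of nhr-2 (C32F10.6, chromosome I, 5818474 to 5821134, minus strand), a receptor known for its expression in the early embryo. It had 50.3, 12.4 and 28 normalized counts in the knockout libraries, against 2.99, 5.91 and 4.68 in the wild type libraries. These rest on 43, 13 and 29 recovered reads in the knockout and 3, 6 and 5 in wild type. The gene passed the filter only through its knockout values, so with wild type values this low the genotypes had to differ. The mean was 6.68 times as high in the knockout, with a log2 fold change of 2.33 (SE 0.54, limma adjusted p = 0.0790) and an adjusted p of 0.00432 in the authors' deposited table. Without knockout replicate 2 the limma adjusted p was 0.0471. Among its limma alternatives the adjusted p lay between 0.0471 and 0.255.

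Oocyte markers were higher in the knockout too. The marker lists, like the others, were chosen with earlier results of these data known. All 10 of 10 listed oocyte markers were tested. limma called 0 of them (against 0.356% of all tested genes), and the authors' deposited table lists 4 as higher (against 4.01%). Their summed normalized counts ranged over 26073 to 63724 in the knockout libraries and 15125 to 23386 in the wild type libraries, and their median log2 fold change was 1.15. For 9 of the 10 all knockout libraries lay above all wild type libraries (against 15.3% of all tested genes), and none was at 0 in all libraries. Both nhr-2 and the oocyte sum were highest in knockout replicate 1. Within wild type, replicate 1 had the highest oocyte sum and the lowest nhr-2 value. The wild type values of nhr-2 rest on too few reads for their order to be read. Sperm markers went the other way, with a median of -0.37 on the log2 scale over 11 genes and sums of 23354 to 29485 in the knockout and 29383 to 40643 in wild type. For 5 of the 11 all knockout libraries lay below all wild type libraries (against 15.2% of all tested genes). The authors' deposited table lists 3 sperm markers as lower (against 4.13%). The part of these markers in the nhr-2 result was not tested, and in whole bodies fewer cells of a type and less RNA per cell cannot be told apart. For intestine markers the median over 7 genes was 0.01 on the same scale, with sums of 132800 to 156047 in the knockout and 131255 to 146691 in wild type. For 1 of the 7 all knockout libraries lay below all wild type libraries, and for 0 all lay above. Pharynx markers had a median of 0.30 over 5 genes, with sums of 23543 to 40983 in the knockout and 18406 to 19619 in wild type. They did not move together. For 4 of them all knockout libraries lay above all wild type libraries (against 15.3% of all tested genes). For the other 1 all lay below (against 15.2%). Neuron markers had a median of 0.12 over 8 genes, with sums of 7052 to 8079 in the knockout and 6582 to 7107 in wild type. Body wall muscle markers had a median of 0.02 over 7 genes, and hypodermis markers -0.07 over 7 genes. Relative to the wild type mean, the median hypodermis marker stood at -0.66, -0.58 and 0.31 in knockout replicates 1, 2 and 3. In wild type replicates 1, 2 and 3 it stood at -0.76, 0.39 and 0.37. The part of these markers in the receptor values was not tested.

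The single receptor that the authors' deposited table calls lower was nhr-155 (C14C6.4, chromosome V, 539460 to 541485, plus strand), with an adjusted p of 0.0324. It had 3.51, 3.83 and 5.79 normalized counts in the knockout libraries, against 2.99, 51.3 and 32.8 in the wild type libraries. Wild type replicate 1 was as low as the knockout, so the groups overlapped. The log2 fold change was -1.86 (SE 0.89, limma adjusted p = 0.253), and the counts behind it were 3, 4 and 6 reads in the knockout and 3, 52 and 35 in wild type. The gene passed the filter only through wild type replicates 2 and 3, so its values had to differ between libraries. The log2 fold change in limma became -1.13 when wild type replicate 2 was left out, and -2.99 when wild type replicate 1 was.

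With 1 library left out, DESeq2 on the recovered reads, which with all libraries made the same 6 receptor calls as the authors' deposited table, called between 0 and 7 receptors. The share of all genes called in those fits was not worked out, so these counts cannot be read against a background. nhr-2 was called in every such fit that gave it an adjusted p, namely without knockout replicate 2 or without wild type replicate 1, 2 or 3. Without knockout replicate 1 or 3 DESeq2 gave it no adjusted p, with log2 fold changes of 2.15 (unadjusted p = 0.00903) and 2.78 (unadjusted p = 0.00115). These results are not independent of the filter, which nhr-2 passed only through its knockout values. Without knockout replicate 1 no receptor was called, though the DESeq2 log2 fold changes stayed at 0.42 for nhr-14 (0.50 with all libraries), 0.39 for nhr-48 (0.49), 0.77 for nhr-173 (0.72) and 0.57 for nhr-114 (0.73). Without knockout replicate 2 it called 7, all higher, adding nhr-19, nhr-35 and nhr-181 to nhr-2, nhr-14, nhr-48 and nhr-173. Of these, nhr-2 and nhr-181 had a mean under 10 normalized counts in 1 genotype. nhr-114 was called without knockout replicate 3 and nhr-155 when wild type replicate 1 was left out, and neither was called in the other fits with 1 library left out.

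The receptor genes are unevenly placed in the genome. Of the 181, 118 lie on chromosome V (65.2%, against 19.7% of all tested genes), 24 on IV, 15 on X, 10 on II, 9 on I and 5 on III. The median log2 fold change was 0.12 for the receptors of chromosome V, beside 0.03 for all tested genes there, and 0.17 for the receptors of X, beside 0.06 for all tested genes of X. Of the 6 receptors with an adjusted p under 0.05 in the authors' deposited table, 3 lie on X, 2 on V and 1 on I. Of the 2125 tested genes of X, that table calls 146 higher and 77 lower. On V it calls 162 of 2993 higher and 143 lower, and on I 56 of 2490 higher and 97 lower. With 6 receptor calls, no pattern by chromosome is read. The deposited annotation assigns 67 receptors to the zinc-finger family zf-C4 and 61.3% of the receptors to the ligand-binding family Hormone_recep. The zf-C4 genes had a median of 0.18 with 51 positive values, and the Hormone_recep genes a median of 0.11 with 72 positive values. All 6 of the authors' calls carry the zf-C4 label, as do 37.0% of the receptors, and 6 calls are too few to compare the labels.

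In all, 72 receptors (39.8%) sit in clusters of at least 3 listed nhr genes with gaps of at most 10 kb, and 63 of these are on chromosome V. The median was 0.10 for clustered receptors and 0.15 for those in pairs or alone. None of the 5 receptors that the authors' deposited table calls higher lies in such a cluster, and nhr-155, the 1 it calls lower, does. These calls are too few to compare the placements. In the cluster with the most genes, which runs from nhr-123 to nhr-131 (chromosome V, 451451 to 497297), all 12 listed genes were tested. Their log2 fold changes ranged from -0.33 to 0.63 with a median of 0.03, and 8 were positive. In the cluster from nhr-133 to nhr-96 (chromosome V, 2210510 to 2235180) 8 of 9 values were positive, from -0.03 to 0.40, with a median of 0.19. Close by, the cluster from nhr-182 to nhr-226 (chromosome V, 2257420 to 2296977) had 7 of 9 positive values, a range of -0.66 to 0.42 and a median of 0.23. In neither of these 2 clusters did any gene lie above wild type in every library (against 15.3% of all tested genes). In the cluster from nhr-182 to nhr-226, 1 gene, nhr-275, lay below it in every library (against 15.2%). Exons of 36 receptors overlap another listed gene, 4 of them another nhr gene, and near-identical copies may share reads, so values within clusters are uncertain.

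**Figure D4:**
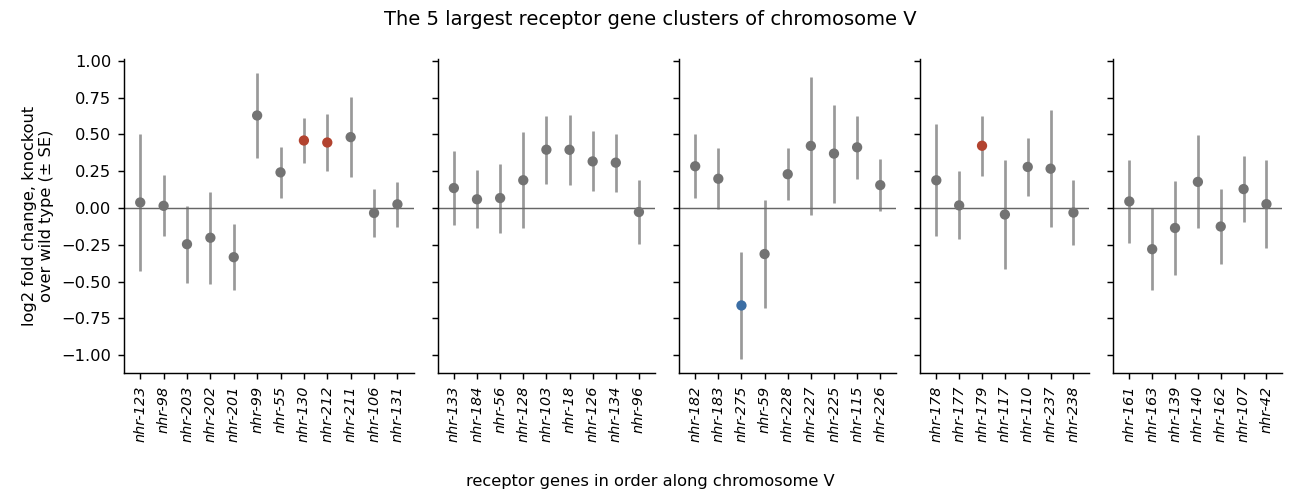
Limma log2 fold change of glna knockout over wild type (points, with bars of 1 SE) for receptor genes in order along the largest clusters of chromosome V, from nhr-123 to nhr-131, nhr-133 to nhr-96, nhr-182 to nhr-226, nhr-178 to nhr-238 and nhr-161 to nhr-42. Red points have all knockout above all wild type libraries and blue points all below. Most points of each cluster lie above 0, as do 68% of all 181 receptors. The medians are 0.03, 0.19, 0.23, 0.19 and 0.03 from left to right, and most bars reach or come near 0.

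Beside the receptors themselves, a list of 41 targets, coregulators, hormone synthesis genes and receptors with other names was followed, of which 38 were tested. This list was chosen with earlier results of these data known, so its shares do not test for an excess. limma called 0 of the 38. At an unadjusted p under 0.05, 8 were higher (21.1%, against 10.9% of all tested genes) and 2 were lower (5.26%, against 11.8%). The authors' deposited table gives an adjusted p under 0.05 to 4 higher genes (10.5%, against 4.01%) and 1 lower gene (2.63%, against 4.13%). Of these, hacd-1, a hydroxyacyl-CoA dehydrogenase, and fat-2, a fatty acid desaturase, are on the list of NHR-49 and NHR-80 targets. hacd-1 had 2675, 2487 and 1833 normalized counts in the knockout libraries, against 1385, 1047 and 1678 in wild type, with a log2 fold change of 0.77 (limma adjusted p = 0.0967, and 0.0150 in the authors' deposited table). fat-2 had 9597, 10058 and 10665 in the knockout, against 7514, 6402 and 8211 in wild type, with a log2 fold change of 0.46 (limma adjusted p = 0.108, and 0.0337 in the authors' deposited table). The other targets on the NHR-49 and NHR-80 list did not separate the genotypes. acs-2, an acyl-CoA synthetase and a classic NHR-49 target, had 3716, 3266 and 6822 in the knockout and 2043, 657 and 3766 in wild type (log2 fold change 1.34, limma adjusted p = 0.211). Its log2 fold change became 0.65 when wild type replicate 2 was left out, and 1.91 when wild type replicate 3 was. fat-7, a desaturase, had 524, 1002 and 498 in the knockout and 824, 805 and 875 in wild type (log2 fold change -0.38, limma adjusted p = 0.382). Without knockout replicate 2, the high library, fat-7 was called lower in limma (adjusted p = 0.0488).

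The 5 propionate shunt genes under NHR-10 and NHR-68 all had positive values, and the median log2 fold change was 0.62. The 4 methionine cycle and vitamin B12 genes had a median of 0.43. Of the shunt genes, alh-8 had 42502, 31389 and 30501 normalized counts in the knockout libraries, against 21239, 18262 and 24042 in wild type. The genotypes did not overlap, with a log2 fold change of 0.71 (limma adjusted p = 0.0844, and 0.00525 in the authors' deposited table). acdh-1, the first enzyme of the shunt, had 44294, 50127 and 45607 in the knockout and 35597, 23395 and 49455 in wild type, and here the groups overlapped (log2 fold change 0.43, limma adjusted p = 0.330). The value became 0.15 when wild type replicate 2 was left out, and 0.69 when wild type replicate 3 was. In the methionine cycle, sams-1, an S-adenosylmethionine synthetase, had 20310, 15032 and 11312 in the knockout and 8976, 5971 and 11341 in wild type, so wild type replicate 3 just exceeded the lowest knockout library (log2 fold change 0.84, limma adjusted p = 0.140, and 0.0373 in the authors' deposited table). For the shunt, the wild type libraries spread more widely than the knockout libraries. Relative to the wild type mean, the median shunt gene stood at 0.60, 0.58 and 0.52 on the log2 scale in knockout replicates 1, 2 and 3 and at 0.08, -0.56 and 0.49 in wild type replicates 1, 2 and 3.

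**Figure D5:**
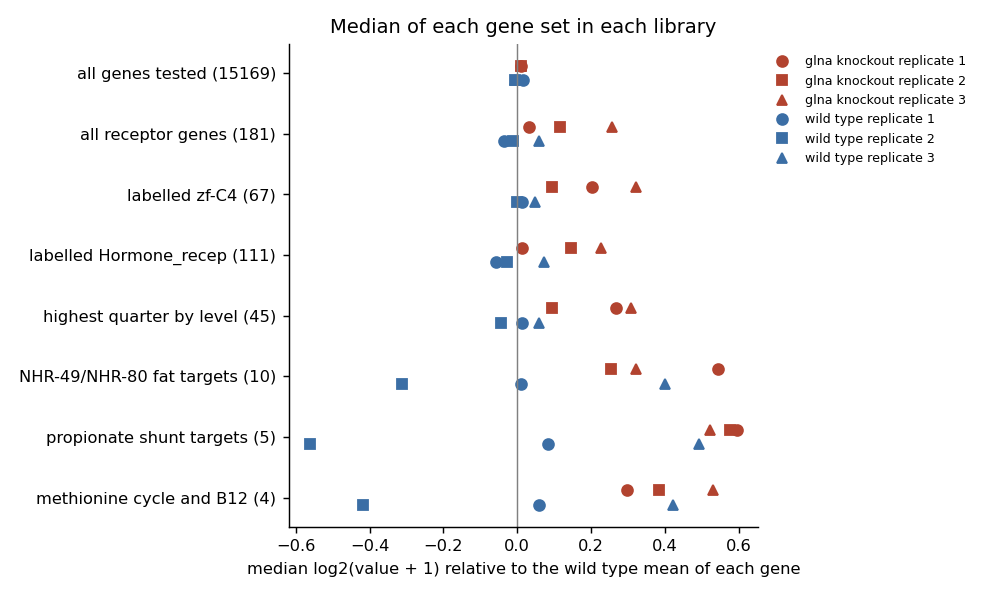
Median of log2(normalized count + 1) relative to each gene's wild type mean, in each library, for all tested genes, the receptor genes and their subsets, and the target lists, with glna knockout in red above wild type in blue. The receptors lie at 0.03 to 0.26 in the knockout and -0.04 to 0.06 in wild type, and the target lists spread more widely, with wild type replicate 2 lowest at -0.56 for the propionate shunt.

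Coregulators and hormone supply were measured too. mdt-15, a Mediator subunit that works with NHR-49, had 5354, 3446 and 3921 normalized counts in the knockout libraries, against 3350, 3297 and 3233 in wild type. The genotypes did not overlap, with a log2 fold change of 0.34 (SE 0.16, limma adjusted p = 0.256), and knockout replicate 1 was the highest. All 4 coregulators had positive values, and the median log2 fold change was 0.36. Relative to the wild type mean, the median coregulator stood at 0.78, 0.05 and 0.23 in knockout replicates 1, 2 and 3. Without knockout replicate 1, the library with the most ribosomal RNA, mdt-15 had a log2 fold change of 0.16. For the 5 genes of dafachronic acid and sterol supply the limma log2 fold changes lay between -0.90 and -0.02, with a median of -0.11. The value nearest 0 is that of daf-36, singled out after its values were seen, whose means were 326 normalized counts in the knockout and 324 in wild type. Of these, ncr-2, a sterol transport gene related to NPC1, had 309, 354 and 356 in the knockout, against 539, 618 and 481 in wild type (log2 fold change -0.68, SE 0.14, limma adjusted p = 0.0737, and 0.00394 in the authors' deposited table). With the replicate number as a block, the adjusted p of ncr-2 was 0.0464. daf-12, the receptor of dafachronic acid, had 1131, 881 and 856 in the knockout and 757, 814 and 831 in wild type, without overlap (log2 fold change 0.24, SE 0.14, limma adjusted p = 0.320).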

How the data were processed

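Total RNA of whole L4 animals was isolated in TRIzol, and libraries were prepared with an NEBNext Ultra kit, per the labels' protocols. Tools named in the submitters' processing notes are DESeq2 1.20.0, featureCounts 1.5.0-p3, HISAT2 2.0.5, CASAVA 1.8 and StringTie 1.3.3b, with the build WBcel235. Per the file headers, the deposited signal columns are the authors' normalized counts. Division by the step of each column returned whole reads in 100% of cases (tolerance 0.01). In wild type replicate 1 the step, 0.997, is close enough to 1 to resemble rounding, but only 10.8% of its values above 0 were whole before division. The authors deposited log2 fold changes, p-values and adjusted p-values of knockout over wild type.

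Symbols and positions came from Ensembl 115 (same build) and, for 6 receptors, symbols from RefSeq. In all, 21059 of 21507 genes had a symbol. limma 3.58.1 (trend) in R 4.3.3 was fitted to log2(normalized count + 1) of 15169 genes with a mean of at least 10, and p-values were adjusted over all of them. Fold changes on this scale understate those of low genes. Alternatives were edgeR 4.0.16 and DESeq2 1.42.0 on recovered reads, quantile and TMM scaling, other pseudocounts (0.5 and 5) and filters (none and 50), sample weights, a replicate block and leaving out each library. DESeq2 with a library left out was added after seeing the data. Receptors named were those with an adjusted p under 0.05 in limma or the authors' deposited table, the 6 highest per kilobase, and described receptors. The receptors and lists were chosen with earlier results of these data known. Tests were tried on simulated data. No member sequences were used here.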

Additional observations from a re-analysis of the deposited data

How the results depend on the processing

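The number of receptors called higher was 0 in limma, 5 in the authors' deposited table, 5 in DESeq2 on the recovered reads, 1 at an adjusted p under 0.1 and 0 to 1 when a library was left out, where the 1 is nhr-2 without knockout replicate 2. The number called lower was 0 in limma, 1 in the authors' deposited table and 1 in DESeq2. Described receptors called were 4, 4, 1 and 0 to 1 under the same settings, receptors with counterparts in other animals 1 in the authors' deposited table and 1 in DESeq2, and pathway genes 5, 5, 3 at 0.1 and 0 to 1, with 3 in DESeq2 without knockout replicate 1 and 2 with the replicate block. The block changed no call of a receptor. Same-numbered libraries had correlated deviations of 0.20, -0.02 and 0.29, so the numbers were not taken to pair them. Under DESeq2 with 1 library left out, the receptors called ranged from 0 to 7 higher and from 0 to 1 lower, with no share of all genes worked out for those fits. The median of the tested genes was 0.0096 with quantile scaling, 0.0043 with TMM, 0.0178 with a mean of at least 50, 0.0150 in the authors' deposited table and in DESeq2, 0.0075 in edgeR, 0.0053 with sample weights and 0.0044 to 0.0155 without 1 library. The median of the receptors stayed between 0.06 and 0.18. Receptors whose groups did not overlap numbered 32 to 49 higher (17.7% to 27.1%, against 18.0% to 22.9% of all tested genes) and 5 to 13 lower (2.76% to 7.18%, against 17.9% to 23.3%) without 1 library, and 2 lower with a mean of at least 50 (1.49%, against 16.4%). Of 21 receptors named with a fold change, 14 kept their direction in every setting. nhr-91 was 0.0128 with quantile scaling, and nhr-6 was 0.0131 and nhr-67 0.0104 with sample weights. In DESeq2 without knockout replicate 1, nhr-6 was 0.23, nhr-85 0.0175 and nhr-8 -0.000371. Without 1 library nhr-6 ranged from -0.31 to 0.28, nhr-67 from -0.31 to 0.14, nhr-85 from -0.18 to 0.0294, nhr-86 from -0.12 to 0.0319, nhr-91 from -0.24 to 0.15, nhr-80 from -0.22 to 0.000667 and nhr-8 from -0.000371 to 0.22. The cause of these changes was not tested. Depth limits the 84 receptors under 100 normalized counts in wild type most, and nhr-2, nhr-148, nhr-155 and nhr-181 had a mean under 10 in 1 genotype.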

Other observations

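In some clusters most receptor genes stayed below the filter, and chromosome V holds such clusters as well as clusters whose genes all passed. Near-identical copies may share reads, so low values within clusters are uncertain. In the cluster from nhr-185 to nhr-124 (chromosome V, 3844429 to 3886204) 1 of 9 listed genes passed the filter, nhr-158. In the cluster from nhr-51 to nhr-53 (chromosome V, 15674007 to 15702363) 1 of 8 passed, nhr-53. Means there ran from 0.322 to 123 normalized counts over the 6 libraries, and the highest was that of nhr-53. In the cluster from nhr-26 to nhr-27 (chromosome X, 12695229 to 12808318) 0 of 5 passed, with means of 0.354 to 1.13. By comparison, all 12 genes from nhr-123 to nhr-131 passed, with means of 29.3 to 236. The 164 listed nhr genes on chromosome V were 65.3% of the 251, and the 118 tested there were 65.2% of the 181.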
